A study of Rattus norvegicus with 4 samples.

Results

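The genes described here are the chemokines, the interleukins and their receptors that were found in dispersed rat anterior pituitary cells. Members were chosen by symbol (Ccl, Cxcl and Cx3c ligands, Ccr, Cxcr, Cx3cr and Ackr receptors, and Il genes, each followed by its number) and by having at least 1 UMI (a unique molecular identifier, which marks a single captured transcript) in 10 or more cells. Of 133 symbols that fit the pattern, 94 met this limit, 26 had UMIs in 1 to 9 cells and 13 had none, out of 30058 genes in the table, 19390 of which were found in 10 or more cells. The 94 members were 28 chemokines, 13 chemokine receptors, 2 atypical chemokine receptors, 20 interleukins, 25 interleukin receptor subunits and 6 antagonists, decoys or orphan receptors, counted by symbol. Just inside the limit stood *Cxcr2* in 10 cells and *Cxcl11*, *Ccr9* and *Il2ra* in 11 each, and just outside it *Il7*, *Il21* and *Ccr4* in 9 each.

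The cells came from Sprague Dawley rats, with 1 pool of 4 pituitaries from diestrus females aged 44 days and 1 pool of 4 pituitaries from males aged 59 days. Neither pool had been treated beyond dispersal, and each was loaded on 2 lanes, called A and B here. The 4 lanes are technical replicates, so the spread between them holds no spread between animals, and sex cannot be told apart from age or pool. Single-cell RNA sequencing of 3′ ends gave 6844 cells that passed quality control, classified as erythrocytes (E, 361 cells), leukocytes (Le, 549), endothelial cells (EC, 132), folliculostellate cells (FSC, 2313), corticotrophs (C, 792), gonadotrophs (G, 239), thyrotrophs (T, 86), somatotrophs (S, 1888) and lactotrophs (L, 484).

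Chemokines are small secreted proteins that bind G protein-coupled receptors and direct the migration of cells, mainly leukocytes. Atypical receptors bind the same ligands and take them up without the usual signal, which shapes their gradients. Interleukins act through paired receptor chains, of which some, such as the gp130 chain encoded by *Il6st*, serve many ligands, and antagonists and decoy receptors limit their action. In the pituitary, interleukin-1 and the interleukin-6 group are known for their effect on the corticotroph axis, and folliculostellate cells are a known source of cytokines.

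Lanes held between 16218657 and 19712379 UMIs in these cells, with medians of 8192 to 9519 UMIs per cell, and 30 barcodes occurred in more than 1 lane. The Y-linked *Eif2s3y* gave 2038 and 2100 UMIs in the male lanes and 0 and 1 in the female lanes. Markers that had played no part in the classification stood with their types. The summed level of *Ptprc*, *Cd52*, *Coro1a* and *Spi1* was 1343 CPM (UMIs per 1000000 UMIs of the cell type) in Le, 144 in E and at most 22.8 in the other types, and that of *Pecam1*, *Cdh5*, *Kdr* and *Flt1* was 2605 in EC and at most 15.9 elsewhere. The 4 pericyte markers *Pdgfrb*, *Rgs5*, *Cspg4* and *Notch3* summed to 190 CPM in EC, which touches the values of EC below, and their part in them was not tested. All levels below are in CPM, so a gene that fills a type lowers all others there. *Gh1* took 30.1% of the UMIs of S, *Prl* 27.04% of those of L, *Pomc* 20.2% of those of C, and globins 65.6% of those of E. The level does not correct for transcript length, since only 3′ ends were counted, and intervals cover counting error only.

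Leukocytes held the highest level of 50 of the 94 members, followed by FSC with 14 and EC with 12. The matching shares of all genes were not computed. Some of these highest levels were very low, such as *Cxcr5* in Le (0.269 CPM) and *Ccl11* in EC (0.869). Over the 9 types, each taken whole, the highest levels were those of *Il1b* (1967 CPM), *Cxcl2* (1309), *Ccl4* (1281) and *Ccl6* (1009), all in Le. By contrast, FSC stood out for *Il33* (289) and *Cxcl12* (252), and C for *Cxcl14* (521) and *Il22* (37.0). A member was said to lead in a type when it was higher there than in each of the 7 other types (E left aside) with an adjusted p under 0.001 in every contrast (edgeR quasi-likelihood test on UMIs summed per type and sex, Benjamini-Hochberg adjustment). The filter on low counts kept 62 members, of which 27 led in a type, 22 of them in Le, 4 in FSC and 1 in EC. Among all genes tested, 8.29% led in some type, 4.3% in Le, 1.3% in FSC and 2.17% in EC. No member led in C, G, T, S or L, where 0.206%, 0.147%, 0.00735%, 0.0294% and 0.132% of all genes tested did. At an unadjusted p under 0.001 in each contrast, the count of leading members was 32, and the share of all genes was not computed for it.

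**Figure D1:**
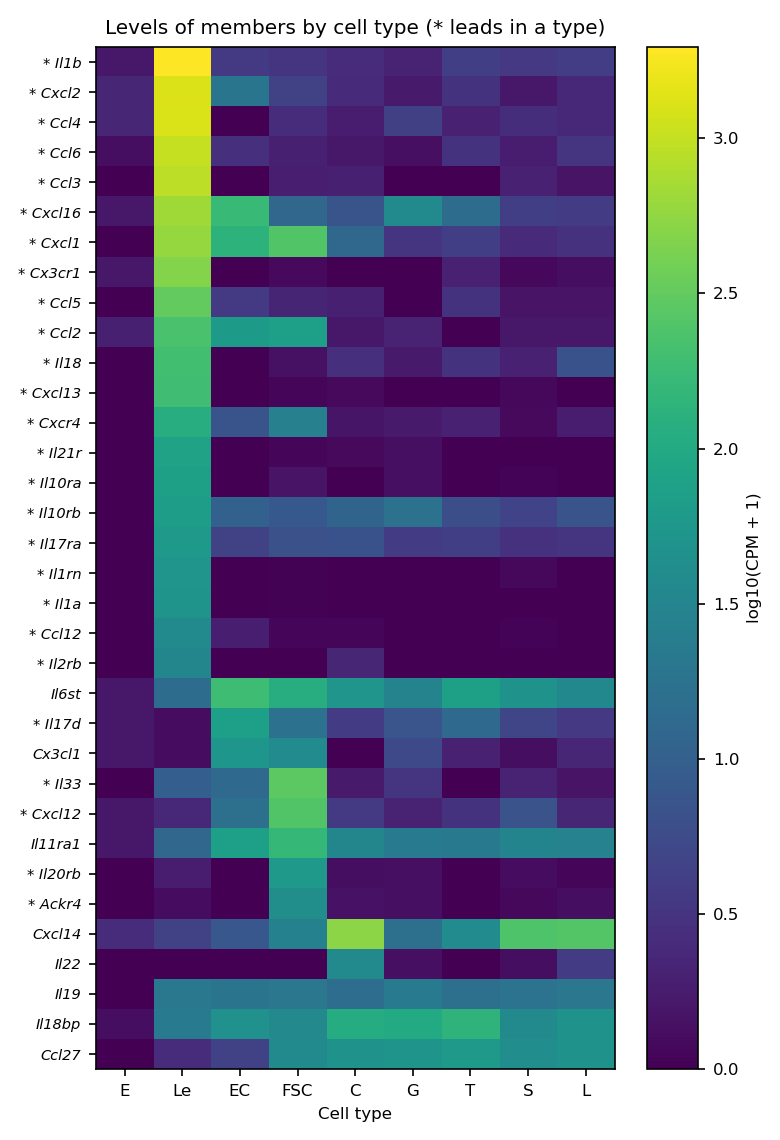
Levels of 34 members in the 9 cell types, as log10 of CPM plus 1 (color), with genes grouped by the type of their highest level and an asterisk where the gene led in that type. The block of bright cells in the Le column, from *Il1b* (1967) down to *Il2rb* (31.8), has no counterpart in another type, while *Il33* and *Cxcl12* are bright in FSC and *Cxcl14* in C, S and L.

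The CC chemokines of leukocytes were *Ccl3*, *Ccl4*, *Ccl5*, *Ccl6*, *Ccl12* and *Ccl2*, ligands that draw monocytes, macrophages and T cells. *Ccl4* was found at 1775 and 1499 CPM in Le of female lanes A and B and at 1031 and 905 in those of male lanes A and B. *Ccl3* stood at 1241, 1139, 737 and 635 in the same order of lanes. Both female lanes were above both male lanes for *Ccl4* and *Ccl3*, which the test between sexes (below) picked on these same lanes. The share of all genes with such an order was not computed. *Ccl6* was even across lanes (912, 1078, 1076 and 951) and the most widely found of them, in 83.8% of Le (exact 95% interval 80.4 to 86.8%), against 55.0% for *Ccl4* and 50.1% for *Ccl3*. In E, which should lack these genes, *Ccl6* was found in 0.277% and *Ccl4* in 1.11% of cells. Cells of E had a median of 8246 UMIs against 6494 in Le. Globins took 65.6% of the UMIs of E, however, which leaves less depth for other genes, so these shares may understate the background. The 3489 hormone-producing cells, with a median of 12380 UMIs, gave 1.29%, 2.01% and 1.09% for *Ccl6*, *Ccl4* and *Ccl3*. *Ccl5* and *Ccl12* were confined to few cells, 37 and 23 of 549 Le, and the 5 richest cells held 50.5% and 77.2% of their UMIs. The lead of *Ccl12* in Le was lost without female lane A (adjusted p = 0.00144, edgeR).

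*Ccl2*, which attracts monocytes, was shared. Its level was 219 CPM in Le (interval 204 to 234), 71.9 in FSC (68.1 to 75.8) and 61.7 in EC. The fitted difference between Le and FSC was 1.94 on the log2 scale (SE 0.33). It was past the limit with all 4 lanes, but not without male lane B (1.65, adjusted p = 0.00476, edgeR quasi-likelihood test) nor with library size in place of TMM scaling (1.36, adjusted p = 0.00391). Within Le it came from 46 cells, and 1 cell of female lane B held 173 of the 812 UMIs.

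Among CXC chemokines, *Cxcl2* and *Cxcl1* encode neutrophil attractants, *Cxcl16* a membrane-bound ligand, and *Cxcl13* the attractant of B cells. *Cxcl2* reached 1995 and 1546 CPM in Le of the female lanes and 895 and 927 in those of the male lanes. It was nearly restricted to Le, as the next type, EC, had 18.3. *Cxcl1* was not: Le had 584 (560 to 610), FSC 249 (242 to 256.3) and EC 136. *Cxcl1* was found in 28.2% of Le and 17.3% of FSC, and its difference of 1.77 between them (SE 0.27) was not past the limit with library size scaling (1.17, adjusted p = 0.00328, edgeR). *Cxcl16* differed less between lanes (743, 745, 629 and 582 in Le) and was present in 86.9% of Le, with 170 CPM in EC and 62.1% of EC positive. *Cxcl13* was unlike the others, as 47 Le gave all 712 UMIs, 5 of these cells held 52.1%, and the lanes ran from 20.4 (female lane B) to 524 (male lane A).

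The sequences around the start sites of *Cxcl1*, *Cxcl2*, *Il1b* and *Cxcl12* are shown because *Il1b*, *Cxcl2* and *Cxcl1* formed the 2 pairs with the highest correlations across single leukocytes (below), while *Cxcl12* is the chemokine that led in FSC. They are RefSeq windows of build GRCr8, 250 bases before to 50 bases after the start, written 5′ to 3′ along the gene, and capitals mark matches to the NF-kappa-B motif on either strand, overlapping matches merged.
Cxcl1 (chr14:17479272-17479571, minus strand): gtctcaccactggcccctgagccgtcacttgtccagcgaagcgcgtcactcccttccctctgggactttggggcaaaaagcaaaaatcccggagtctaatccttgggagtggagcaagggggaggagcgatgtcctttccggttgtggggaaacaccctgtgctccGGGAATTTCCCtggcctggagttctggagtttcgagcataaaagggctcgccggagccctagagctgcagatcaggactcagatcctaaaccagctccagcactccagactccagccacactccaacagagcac
Cxcl2 (chr14:17467206-17467505, minus strand): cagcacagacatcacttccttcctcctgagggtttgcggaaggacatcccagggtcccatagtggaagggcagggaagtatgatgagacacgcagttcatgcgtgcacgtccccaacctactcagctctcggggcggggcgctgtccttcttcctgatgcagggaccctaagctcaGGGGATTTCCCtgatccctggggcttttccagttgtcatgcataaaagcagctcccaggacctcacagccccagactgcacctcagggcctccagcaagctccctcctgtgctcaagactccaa
Il1b (chr3:137036532-137036831, minus strand): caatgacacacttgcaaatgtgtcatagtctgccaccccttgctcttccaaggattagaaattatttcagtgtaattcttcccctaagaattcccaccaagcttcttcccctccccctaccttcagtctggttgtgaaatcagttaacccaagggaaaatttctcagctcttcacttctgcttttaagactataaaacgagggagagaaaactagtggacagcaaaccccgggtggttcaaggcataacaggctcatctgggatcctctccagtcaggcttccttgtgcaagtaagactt
Cxcl12 (chr4:152060531-152060830, plus strand): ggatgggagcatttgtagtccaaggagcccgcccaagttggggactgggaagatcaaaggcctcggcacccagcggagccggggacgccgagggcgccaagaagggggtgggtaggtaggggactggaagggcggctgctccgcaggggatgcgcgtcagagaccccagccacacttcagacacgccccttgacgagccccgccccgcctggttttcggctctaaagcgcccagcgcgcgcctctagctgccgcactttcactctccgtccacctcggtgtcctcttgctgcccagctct
The match lay 84 to 74 bases before the start in *Cxcl1* and 74 to 64 bases before it in *Cxcl2*. Windows were at hand for 69 of the 94 members, of which 14 (20.3%) held the motif, against 7.601% of all 27457 windows. Of 15 windows of members that led in Le, 2 held it, those of *Cxcl1* and *Cxcl2*, and of the 4 of FSC none did. The letters TATAAA, on either strand, were in 7 of the 15 Le windows, *Il1b* among them (60 to 55 bases before the start), in none of the 4 FSC windows and in 14.3% of all windows. A match describes letters in this window and no more.

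The interleukins of leukocytes were *Il1b*, *Il1a* and *Il18*, all of the interleukin-1 family, with the antagonist *Il1rn*. *Il1b* had the highest level of a member in any of the 9 whole types. Its lanes gave 2710 and 2117 CPM in females and 1476 and 1709 in males, and 72.7% of Le were positive (68.7 to 76.4%). In FSC it was found in 1.64% and in hormone-producing cells in 3.01% of cells, with 0.554% in E. *Il18* was lower but even (174, 194, 201 and 218), and found in 68.7% of Le. *Il1a* came from 24 Le, which gave 96.5 and 80.5 CPM in the female and 18.3 and 14.1 in the male lanes. *Il1rn*, which blocks the interleukin-1 receptor, had 79.4 and 62.3 in the female and 32.8 and 35.7 in the male lanes. *Il10*, an interleukin that restrains inflammation, and *Il16*, a ligand of CD4, were highest in Le too (25.1 and 53.6) but missed the limit (adjusted p = 0.00108 and 0.00152 in the weakest contrast, edgeR).

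Receptors of leukocytes included *Cx3cr1*, the fractalkine receptor of macrophages and microglia, at 482 CPM and in 83.1% of Le. Only 0.229% of hormone-producing cells had a UMI of it, less than the 0.554% of E. *Cxcr4*, the receptor of the *Cxcl12* product, had 113 in Le and 26.1 in FSC (23.9 to 28.5), a fitted difference of 2.70 on the log2 scale (SE 0.34). *Il21r* (77.3), *Il10ra* (74.1), *Il10rb* (70.1), *Il17ra* (57.7) and *Il2rb* (31.8) also led in Le, *Il2rb* not without male lane A (adjusted p = 0.00195, edgeR). *Il10rb*, the second chain of the interleukin-10 and interleukin-22 receptors, was present in all types but E, with 3.63 in S to 15.98 in G outside Le.

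Folliculostellate cells led for *Il33*, *Cxcl12*, *Il20rb* and *Ackr4*. *Il33* encodes an alarmin held in the nucleus until the cell is damaged, and it stood at 347 and 351 CPM in the female and 234 and 246 in the male lanes. It was found in 76.9% of FSC (75.1 to 78.6%), and the next type, EC, had 12.2. *Cxcl12*, which retains leukocytes and progenitors in tissue, had 221 and 225 in the female and 279 and 273 in the male lanes, in 72.3% of FSC. The 18 UMIs of *Cxcl12* in EC came from 6 cells, all of the male lanes. The pericyte markers in EC summed to 18.9 and 19.8 in the female and 333.2 and 576.5 (CPM) in the male lanes, and their part in this was not tested. The fitted differences to the nearest type were 4.48 for *Il33* (over Le, SE 0.25) and 4.08 for *Cxcl12* (over EC, SE 0.56) on the log2 scale. Of 2313 FSC, 1343 had UMIs of both genes. With erythrocytes in the fit the lead of FSC was lost for *Cxcl12* (adjusted p = 0.0459), *Il20rb* (0.0823) and *Ackr4* (0.191, edgeR), with differences of 3.35, 5.56 and 6.30 on the log2 scale. With cells thinned to 2000 UMIs it was lost for *Il20rb* (0.00195) and *Ackr4* (0.00935, edgeR).

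*Il20rb*, a receptor chain for interleukins of the interleukin-20 group, had 59.1 CPM in FSC (55.7 to 62.7) and no more than 0.808, from 3 UMIs in Le, in any other type. *Ackr4* binds and removes the ligands of *Ccr7*, and had 41.4 (38.5 to 44.4) in FSC against 4 UMIs in C, the next type. Both were found in a minority of FSC, 31.8% and 23.9%. *Il11ra1*, the interleukin-11 receptor, was highest in FSC (154) and next in EC (72.2), but its difference over EC of 1.19 (SE 0.24) just missed the limit (adjusted p = 0.00106, edgeR). *Il34*, a ligand of the macrophage receptor encoded by *Csf1r*, had 24.6 in FSC, 6.09 in EC and 5.16 in C, and did not lead.

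Endothelial cells led for *Il17d* (72.2 CPM, in 43.9% of EC), with 16.5 in FSC and a fitted difference of 2.00 on the log2 scale (SE 0.32). This call was lost without female lane A (adjusted p = 0.00412), without female lane B (0.0023) and without male lane B (0.00271), and also when no cell was removed for quality (0.00352, edgeR). *Cx3cl1*, which encodes fractalkine, had 53.0 in EC (40.6 to 68.1) and 37.4 in FSC (34.7 to 40.3), with a difference of 0.37 on the log2 scale (SE 0.33, adjusted p = 0.43, edgeR). *Il2rg*, the common chain for interleukin-2 and related ligands, was found in 25.0% of EC at 38.3 (27.8 to 51.3) and in 9.65% of Le at 19.9, with at most 2 UMIs in any other type, and the difference between EC and Le was 0.22 on the log2 scale (SE 0.57, adjusted p = 0.839, edgeR). *Il1r1*, the signaling receptor for interleukin-1, was found in EC (27.8) and FSC (19.3), and in Le none of 549 cells had a UMI, which allows up to 0.808 CPM.

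No member led in a hormone-producing type, where at most 0.206% of all genes tested did. *Cxcl14*, a chemokine of epithelia, had the most UMIs of any member and was found in 3541 cells of the table. Its level in C was 542, 504, 523 and 518 in the 4 lanes, in 89.0% of cells, against 259 in L, 242 in S, 37.3 in T and 15.3 in G. The difference of C over L was 0.69 on the log2 scale (SE 0.31, adjusted p = 0.13, edgeR), while over 5 of the other types it was past the limit. *Il22*, an interleukin that acts on epithelial cells, was found in 28.7% of C (25.5 to 31.95%), with 44.5 and 51.4 CPM in the female and 32.1 and 25.8 in the male lanes. Outside C it had 17 UMIs in L, 9 in S, 1 in G and none in E, Le, EC, FSC and T, and it passed 6 of the 7 contrasts (adjusted p = 0.00225 in the weakest, edgeR). The 60 melanotrophs, a related type left out of the 9, were not filtered for quality. Among them, *Il22* was found in 9 cells (12.4 CPM, 5.68 to 23.6) and *Cxcl14* in 86.7% of cells (412 CPM). Of the 227 C with *Il22*, 210 had *Cxcl14* as well. *Il6r*, the interleukin-6 receptor chain, had 43.0 in C (38.9 to 47.5) and 43.1 in Le (36.7 to 50.3), levels whose intervals overlapped. *Cxcr7*, as the file lists the atypical receptor ACKR3 for the *Cxcl12* product, had 11.8 in S, 13.9 in EC, 9.88 in FSC and 7.96 in L, with none in Le.

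Some members were broad. *Il6st* ranged from 13.7 CPM in Le to 188 in EC, with 111 in FSC, 72.5 in T and 28.8 to 50.7 in the other hormone-producing types. In EC it had 116 and 165 in the female and 255 and 263 in the male lanes. The pericyte markers stood in the same order, and their part was not tested. *Il18bp*, a soluble decoy for interleukin-18, had 139 in T, 108 in C and 101 in G, and 21.0 to 47.4 in the remaining types other than E. *Ccl27*, a chemokine known from skin, had 36.2 to 59.1 in FSC and the hormone-producing types, 3.48 in EC and 1.62 in Le. In the later build GRCr8, *Ccl27* overlaps *Il11ra1*, *Il18bp* lies 68 bases from *Numa1* and *Il17d* 23 bases from *Ift88*. The study lengthened the 3′ ends of genes in its own, earlier reference and kept genes from overlapping there. Whether reads of a gene were counted for its neighbor was not tested. *Il19* lay between 14.1 and 22.7 in the 8 types other than E, while 0 UMIs in E allow up to 0.952.

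The receptors of several ligands were scarce. *Il1rl1*, the *Il33* receptor, gave 9 UMIs in Le and none in the other types, and *Il22ra1*, the private chain for *Il22*, was found in 6 cells of the table. *Cxcr2*, the receptor of *Cxcl1* and *Cxcl2* products, was found in 10 cells, *Cxcr5* in 12 and *Il18r1* in 19. At this depth, 0 UMIs of a gene allow up to 0.808 CPM in Le and 0.158 in FSC.

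Few members passed the limit between lanes of the same pool, though a larger share than of all genes. In the test of lane A against lane B, with cell types as blocks, 1 of 60 members passed between the female lanes (*Ccl7*, lower in lane A, -1.36 on the log2 scale, SE 0.29) and 3 of 53 between the male lanes (*Cxcl13*, *Ccl5* and *Cxcl1*, higher in lane A by 2.07, 0.67 and 0.37). Among all genes tested, 0.378% and 0.159% passed. *Cxcl13* and *Ccl5* were concentrated in few cells, as above, and *Ccl7* was found in 108 cells of all types, 11 of them Le. DESeq2 called 0 members in either sex, with 2 and 2 members at an unadjusted p under 0.05 in the female and male lanes, against 9 and 11 by edgeR.

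**Figure D2:**
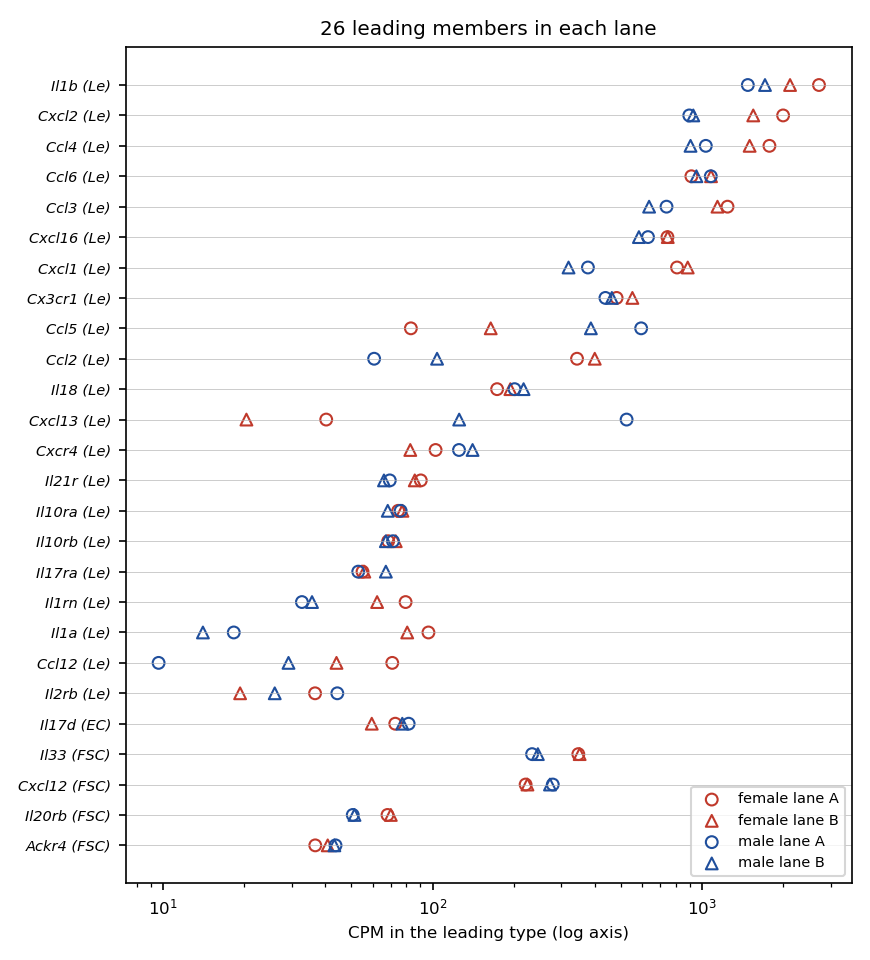
Levels of 26 leading members in their leading type (in parentheses) in each of the 4 lanes, as CPM on a log axis (circles lane A, triangles lane B, red female, blue male). Marks of the same color lie close together for most genes, *Cxcl13* spreads from 20.4 to 524, and genes such as *Il1a*, *Ccl2*, *Cxcl1*, *Cxcl2* and *Il33* have both red marks to the right of both blue ones. *Cxcl12* has the reverse order, and the share of all genes with either order was not computed.

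Leukocytes were split by complement transcripts, none of which is a member, into classes that share the cells and lanes above. The 493 cells with at least 2 of *C1qa*, *C1qb* and *C1qc* above threshold, macrophage-like by these genes, were compared with the 56 others, of which 26 were T or NK cell-like by *Cd3* genes, *Cd2*, *Nkg7* and *Gzma*, and 25 fell in no class. Sums per lane and class with lane as a block gave 14 of 39 members past the limit, 7 higher and 7 lower in the C1q class, where 3.85% and 3.72% of all genes tested were higher and lower. Higher were *Cxcl13*, *Cx3cr1*, *Cxcl10*, *Ccl12*, *Cxcl16*, *Cxcl2* and *Ccl6*. *Cx3cr1* had 563.5, 598, 486.5 and 502 CPM in the C1q class of the 4 lanes and 24.1, 0, 18.4 and 0 in the others, and *Cxcl16* had 741 and 63.2 over all lanes. The groups did not overlap in either gene, though both were picked by the test on these same sums. The share of all genes without overlap was not computed. All 712 UMIs of *Cxcl13* were in the C1q class.

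Lower in the C1q class were *Il2rb*, *Ccl5*, *Cxcr3*, *Ccr7*, *Il2rg*, *Ccl17* and *Ccl1*, several of which belong to T and NK cells. *Ccl5* had 11.1 CPM in the C1q class and 3048 in the other leukocytes, or 7352 in the T or NK cell-like cells, of which 18 of 26 carried it. *Il2rb*, a receptor chain for interleukins 2 and 15, had 118 UMIs in the 56 other cells and none in the 493, whose level it limits to 0.900 CPM. *Ccl17* (43 UMIs) and *Ccl1* (23 UMIs) rested on 2 and 5 of the other cells. *Il1b* had 1952 CPM in the C1q class and 2103 in the other leukocytes, though only 1 of 26 T or NK cell-like cells had it. The other leukocytes were few, 11 to 19 a lane, and of the 14 calls 9 were kept without female lane A, 9 without female lane B, 8 without male lane A and 13 without male lane B. *Ccl12*, *Ccl6* and *Cxcl10* were lost without each of the first 3 of these lanes.

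Within the C1q class, *Il1b*, *Cxcl2*, *Ccl3* and *Ccl4* were all found in 123 of 493 cells (24.95%), and none of them in 38 (7.71%), with median depths of 6470 and 5838 UMIs. Across these cells, as a description without a test, Spearman's rho was 0.58 between *Il1b* and *Cxcl2*, 0.60 between *Cxcl2* and *Cxcl1*, 0.47 between *Il1b* and *Cxcl1* and 0.56 between *Ccl3* and *Ccl4*. It was lower between the CXC or interleukin and the CC genes, 0.17 between *Il1b* and *Ccl4* and 0.23 between *Cxcl2* and *Ccl3*. *Ccl6* and *Cx3cr1* went slightly against each other (-0.23), and *Ccl6* was unrelated to *Il1b* (0.02). These cells share lanes and differ in depth. Of the cells with all 4 genes, 37, 36, 27 and 23 were of female lanes A and B and male lanes A and B.

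**Figure D3:**
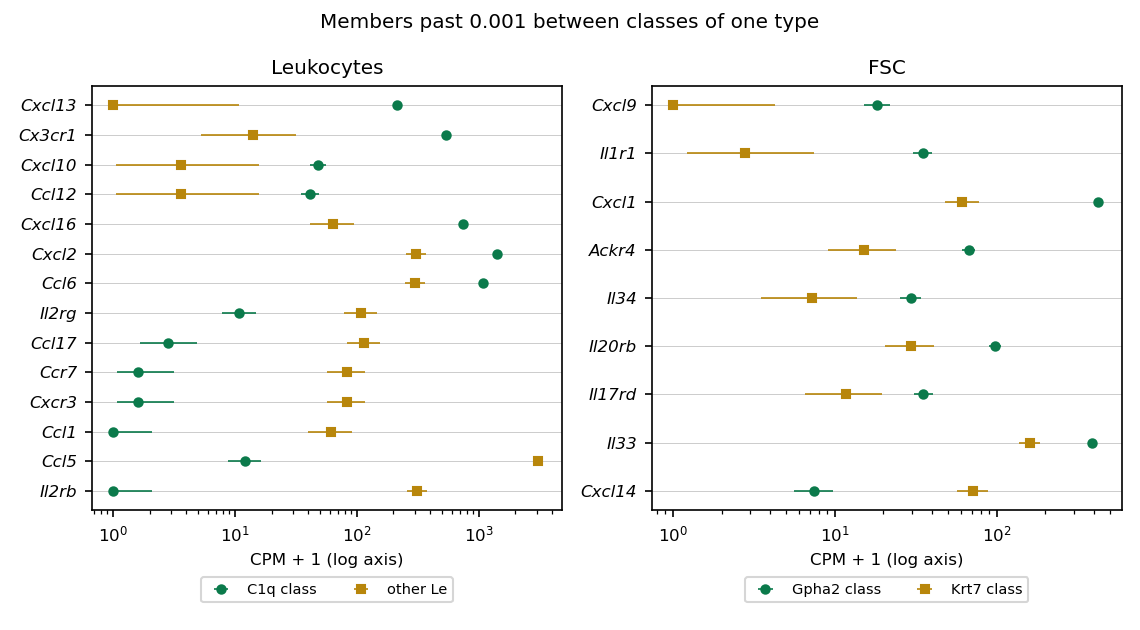
Levels (CPM plus 1, log axis) with exact 95% Poisson intervals of the 14 members past the limit between C1q and other leukocytes and of the 9 past it between Gpha2 and Krt7 folliculostellate cells. Green circles are the C1q and Gpha2 classes and brown squares the others. *Il2rb*, *Ccl5* and *Cxcr3* lie far to the right in the other leukocytes, and *Cxcl14* is the gene of FSC that is higher in the Krt7 class.

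Folliculostellate cells fell into a class with *Gpha2* above and *Krt7* below threshold (789 cells), its reverse (109), and cells with neither (1396) or both. Between the first pair of classes, 9 of 25 members passed, 8 higher in the Gpha2 class (*Cxcl1*, *Il33*, *Il20rb*, *Il1r1*, *Ackr4*, *Cxcl9*, *Il34* and *Il17rd*) and 1 lower (*Cxcl14*), where 3.4% and 2.61% of all genes tested were higher and lower. *Il33* had 431, 445, 332 and 335 CPM in the Gpha2 class of the 4 lanes and 204, 220, 86.9 and 152 in the Krt7 class. *Cxcl1* had 422 and 60.4 over all lanes, a difference of 2.85 on the log2 scale (SE 0.16), and the lowest lane of the Gpha2 class (244) was above the highest of the Krt7 class (96.3). The share of all genes with lanes set apart in this way was not computed. *Cxcl14* went the other way, with 6.47 in the Gpha2 class and 80.9, 48.0, 68.9 and 81.2 in the Krt7 class of the 4 lanes. *Il1r1* had 34.0 and 1.78, the latter from 2 cells, and *Cxcl9* came from 24 cells of the Gpha2 class and none of the Krt7 class. *Il34* and *Il17rd* were lost whichever lane was left out, *Cxcl9* without each lane but male lane B, and *Ackr4* without male lane A (adjusted p = 0.00111) and with thinned cells (0.00223, edgeR). *Cxcl12* stood at 280 and 180 (difference 0.70, SE 0.16) and did not pass (adjusted p = 0.00278, edgeR). Cells with neither mark lay between the classes for *Il33* (251), *Cxcl1* (177), *Il20rb* (41.5), *Ackr4* (31.1) and *Cxcl14* (34.7).

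In the comparison of female with male lanes, made type by type, 16 differences in 14 members passed. These lay in Le (7 of 40 members tested), FSC (3 of 37), L (3 of 10), S (2 of 21) and G (1 of 7), where 0.344%, 2.94%, 17.7%, 10.8% and 4.08% of all genes tested passed. None of 19 members in C, 12 in EC and 3 in T passed by edgeR (0.665%, 0.793% and 0.824% of all genes), with 5, 1 and 1 at an unadjusted p under 0.05, and DESeq2 called 0 in each. In Le, the share of members past the limit was far above that of all genes, while in S it was near that of all genes, and only 10 members could be tested in L. Each sex is 1 pool, and these p-values measure only the spread between lanes.

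In Le, *Il1a*, *Ccl2*, *Cxcl1*, *Cxcl2*, *Ccl3* and *Ccl4* were lower in the male lanes, with male minus female differences of -2.41, -2.17, -1.26, -0.94, -0.77 and -0.74 on the log2 scale (SE 0.23, 0.18, 0.10, 0.10, 0.09 and 0.09), and *Ccl5* was higher by 1.98 (SE 0.23). *Cxcl1* had 806 and 884 CPM in the female and 377 and 319 in the male lanes, and *Ccl2* had 343 and 399 against 60.7 and 104. None of the 7 calls was kept without male lane A, where the adjusted p ranged from 0.00197 to 0.0409 at differences of -2.62 to 1.64 (edgeR). When the test was limited to the C1q class, an alternative chosen after the values were seen, 8 of 36 members passed (0.544% of all genes), the same 6 lower in males, *Ccl7* lower (-2.998, SE 0.44) and *Cxcl13* higher (3.45, SE 0.46). *Ccl5* was not among the 36 members tested there. The markers of T and NK cells in Le summed to 145 and 192 CPM in the female and 259 and 306 in the male lanes. Like *Ccl5*, they were higher in the male lanes, but between the male lanes they were higher in lane B and *Ccl5* in lane A. Within the T or NK cell-like cells, *Ccl5* had 1973 and 5322 CPM in female lanes A and B. It had 16260 and 5899 in male lanes A and B. In the same order, the lanes held 5, 5, 6 and 10 such cells. The part of these cells in the difference of *Ccl5* was not tested. *Cxcl13* differed between the male lanes as well (524 and 125.5 in Le). So did *Ccl5* and *Cxcl1* in the lane test with cell types as blocks (0.67 and 0.37 on the log2 scale). The immediate early genes *Fos*, *Fosb*, *Jun*, *Junb* and *Egr1*, which respond to cell dispersal, summed to 6734 and 6370 in Le of the female and 5992 and 5459 in those of the male lanes, and their part in these differences was not tested.

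In FSC, *Il33* and *Cxcl1* were lower in the male lanes (-0.58, SE 0.05, and -0.91, SE 0.10), and *Il34* was higher by 0.91 (SE 0.14). *Cxcl1* had 350.0 and 314 CPM in the female and 211 and 152 in the male lanes, and *Il34* 16.9 and 15.7 against 31.7 and 31.1. The lanes of the sexes did not overlap in any of the 3, though these genes were picked by the test on the same lanes. How many of all genes showed no overlap was not computed. Without the filter on low counts none of the 3 was past the limit (adjusted p = 0.00367 to 0.0318, edgeR), *Cxcl1* was lost without female lane A, and *Il34* without female lane A, female lane B or male lane B. The same immediate early genes summed to 27200 and 25340 in FSC of the female and 19440 and 18560 in those of the male lanes, and their part was not tested. In S, *Il6st* and *Il6r* were higher in males by 0.49 (SE 0.10) and 1.01 (SE 0.21), *Il6r* with 5.62 and 5.36 against 11.95 and 11.1 CPM. *Il6r* was lost without female lane A, female lane B or male lane A, and *Il6st* without female lane B or male lane B. With DESeq2 both were lost (adjusted p = 0.0543 for *Il6r* and 0.0348 for *Il6st*). With thinned cells *Il6st* was lost (adjusted p = 0.144, edgeR) and *Il6r* was not tested.

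*Il18bp* was higher in the male lanes in G by 1.78 (SE 0.21) and in L by 1.44 (SE 0.19). With cells thinned to 2000 UMIs, *Il18bp* lost its call in L (1.70, adjusted p = 0.00705, edgeR). In G it had 39.5 and 61.3 CPM in the female and 209 and 208 in the male lanes, and in L 25.8 and 19.7 against 102 and 92.8. In C it had 123, 110, 111 and 92.9, where the difference was -0.25 (SE 0.10, adjusted p = 0.349, edgeR). Its neighbor *Numa1* differed by 0.29 in G and -0.57 in L, neither past the limit. In L, *Prl* took 319900 and 310300 CPM in the female and 183100 and 175000 in the male lanes, which makes the values of all other genes depend on the scaling. Relative to TMM factors, the median of all genes in L moved by 0.65 on the log2 scale when library size alone was used, by 0.27 in G, by -0.26 between the leukocyte classes, by -0.13 in T and by under 0.1 in the other comparisons of sexes or classes. *Cxcl14* in L, lower in males with TMM (-0.87, SE 0.10), differed by -0.21 with library size (adjusted p = 0.0646), with 285 and 256.4 CPM in the female and 257 and 205 in the male lanes. *Il18* in L rested on 23 cells, 7 of females and 16 of males, of which 2 had a UMI of the 4 leukocyte check markers, and its call was lost whichever lane was left out. The immediate early genes summed to 1597 and 1831 in L of the female and 6148 and 6112 in those of the male lanes. In G they summed to 3779 and 3196 in the female and 7102 and 7437 in the male lanes. C had 4362, 4499, 4387 and 4772 in the 4 lanes. The part of these genes in the differences was not tested.

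**Figure D4:**
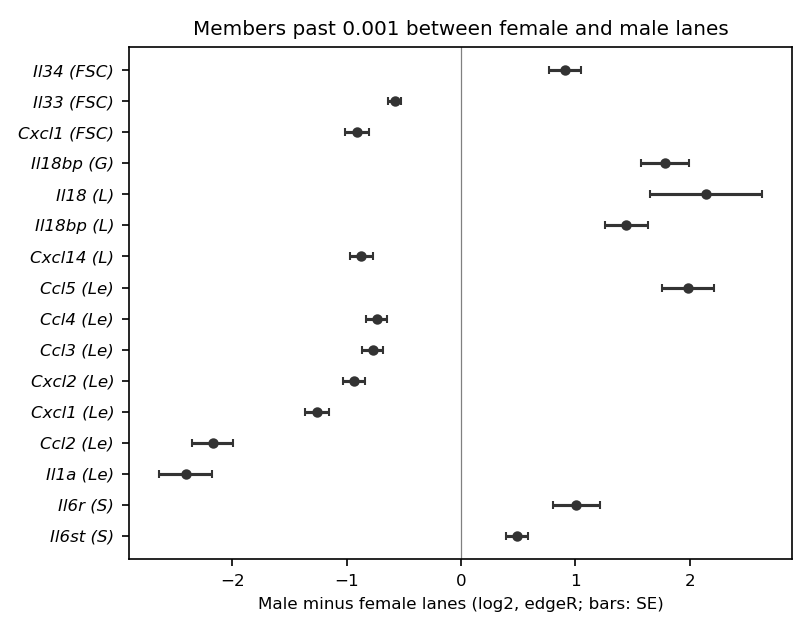
Differences between male and female lanes on the log2 scale with their SE for the 16 calls at an adjusted p under 0.001 (edgeR), with the cell type in parentheses and the line at 0 marking no difference. Of the 7 genes of Le, 6 lie to the left (higher in females) and *Ccl5* to the right, and *Il18bp* lies to the right in both G and L.

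For ligands and receptors, 61 pairs were listed from general knowledge, and in 36 both genes were found in 10 or more cells. In 14 of these both were highest in the same type, and in 22 in different types. The split was taken from levels without a test, and some of these highest levels were nearly tied or close to the floor, which limits it. *Il6r* had 43.11 CPM in Le and 43.02 in C, and *Cxcr7* 13.91 in EC and 11.81 in S. Le held the highest level of 50 of the 94 members, and the split to be expected from this was not computed. *Cxcr2* and *Il17rb* were highest in T at 1.04 CPM, where 0 UMIs allow up to 3.11, and *Cxcr5* in Le at 0.269. Of 12 plotted pairs, in which both genes reached 10 CPM in some type, 3 were highest in the same type, which was Le for all of them (*Il1b* with the decoy *Il1r2*, *Il10* with *Il10ra* and *Il16* with *Cd4*). The other 9 plotted pairs ran between types. Not every pair at these levels was plotted, so this split holds for the plotted pairs only. Among the 9 types, FSC had the most *Cxcl12* and Le the most *Cxcr4*, and EC, S, FSC and L held *Cxcr7*. EC and FSC had *Cx3cl1* where Le had *Cx3cr1*, and FSC had *Il34* where Le had *Csf1r* (661). The 51 pericytes, left out of the 9 types, had more *Cxcl12* (737.7 CPM), *Il34* (224.9) and *Cx3cl1* (167.3) than any of these types. Pericytes were not filtered for quality as these types were. *Il1b* and *Il1a* were highest in Le and *Il1r1* in EC (27.8), with 19.3 in FSC. *Il15* was highest in EC (28.7) and the receptor chains *Il15ra* (19.4) and *Il2rb* in Le, while the common chain *Il2rg* was higher in EC (38.3) than in Le (19.9) without passing the limit. For *Il22*, *Il33* and *Cxcl13* the private receptor was scarce, as given above. Transcripts of a ligand and its receptor do not show that either protein is made.

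**Figure D5:**
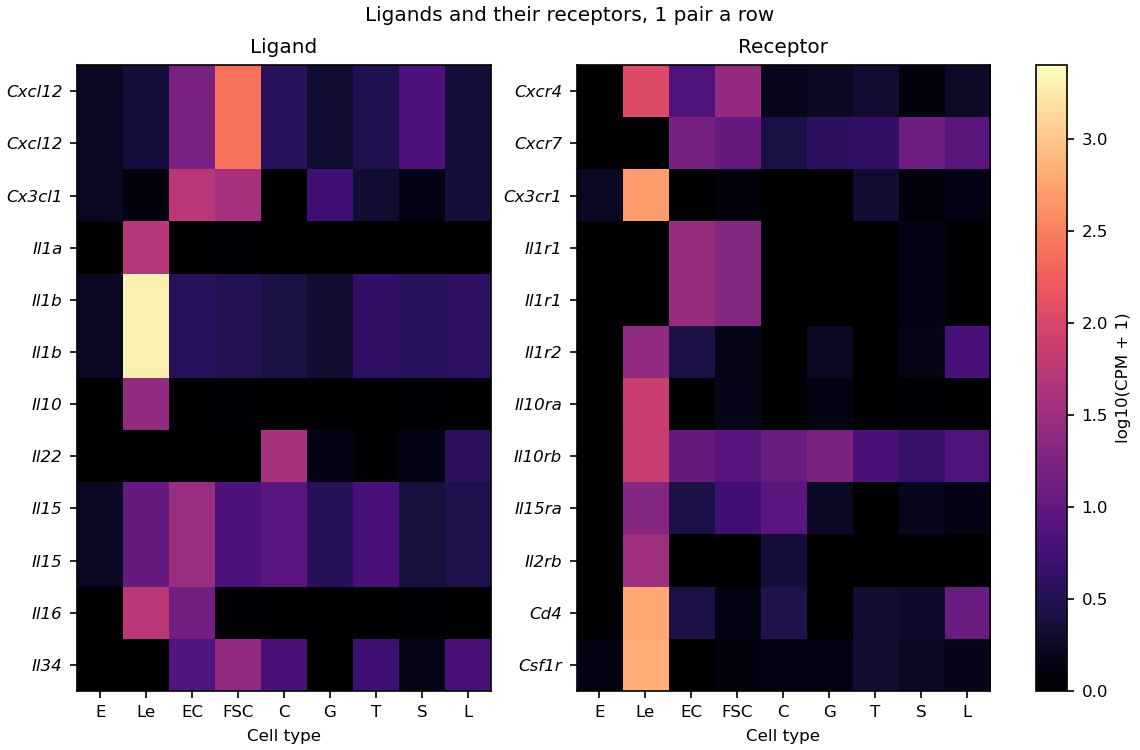
Levels of the ligands (left) and receptors (right) of 12 pairs, 1 pair a row, in the 9 cell types, as log10 of CPM plus 1. Ligands are brightest in Le, FSC, EC or C, whereas the receptors are brightest in Le except *Il1r1* and *Cxcr7*, which are brightest in EC.

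Genes that relay or accompany these signals were read from the same fit. Of 90 genes listed, 88 were in the table, 78 were tested and 24 led in a type, 21 in Le, 2 in FSC (among them *Ctf1*, which encodes a ligand that acts through gp130) and 1 in EC (*Tnfrsf1a*, a tumor necrosis factor receptor). Among all genes tested, 8.29% led in some type, 4.3% in Le, 1.3% in FSC and 2.17% in EC. The 10 that stood farthest above their nearest other type were all in Le, and were the G protein regulator *Rgs1*, the macrophage receptor *Csf1r*, *Cd74*, the inflammasome gene *Nlrp3*, the cytokine gene *Osm*, the chemokine gene *Xcl1*, *Csf2rb*, *Cd4*, *Dock2* and *Ccrl2*. *Osm*, also a ligand of gp130, was higher in Le than in L, the nearest type, by 7.71 on the log2 scale (SE 0.47), and *Tnfrsf1a* was higher in EC than in Le by 1.44 (SE 0.21).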

How the data were processed

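Dispersed anterior pituitary cells of 1 female and 1 male pool were profiled by single-cell RNA sequencing of 3′ ends. The authors deposited 1 table of UMI counts per gene and cell, made with Cell Ranger 2.1 according to the submitters' processing notes, in which both sexes are joined. Lanes were told apart by the barcode suffix and matched to the sexes by the number of cells that the study gives for each lane. Of 7861 cells, 6844 were left after removal of cells with many mitochondrial UMIs (276), outlying depth (328) or a likely doublet (183), of cells with no or more than 1 class, and of 51 pericytes, 60 melanotrophs and 59 posterior pituitary cells. Cell types were rebuilt from the study's marker rules with Otsu thresholds, so they may differ from the study's own. Levels are CPM (UMIs per 1000000 UMIs of a type) with exact Poisson intervals, shares of cells have exact binomial (Clopper-Pearson) intervals, and 0 UMIs allow 3 counts; all cover counting error only.

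UMI counts were summed per type and sex, or per type and lane, and tested with edgeR 4.0.16 (R 4.3.3) by its quasi-likelihood test with TMM factors (0.653 to 1.32 between types), filterByExpr with a minimum count of 10 and Benjamini-Hochberg adjustment over all genes of a contrast, at a limit of 0.001. The SE of a log2 difference is its size divided by the square root of F. DESeq2 1.42.0, library size scaling, no filter, a limit of 0.05, thinning of each cell to 2000 UMIs and leaving out each lane were alternatives. Scripts were tested on simulated data. Members that lead in a type, pass a test, belong to a listed ligand and receptor pair or are among the 20 with most UMIs are named, as are the 10 leading relay genes; results for some of these genes are not reported here. Members and lists were chosen with earlier results of these data known, and no list gives independent support. Promoter windows and gene neighbors are from RefSeq for GRCr8, a later build than the reference of the study, and served for sequence and names alone.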

Additional observations from a re-analysis of the deposited data

Results flagged for a closer look

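The difference of *Il18bp* between male and female lanes was larger in G than in the mean of the other types by 1.56 on the log2 scale (adjusted p = 6.6e-07, edgeR quasi-likelihood test of the interaction), and in L by 1.17 (adjusted p = 3.7e-05). Each sex is 1 pool, so these p-values measure only the spread between lanes. *Il18bp* had already passed the test between sexes on the same sums.

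Cells left out of the 9 types also held members, at levels whose lower bound was above the upper bound in every one of the 9 types. Unlike the 9 types, these cells were not filtered for mitochondrial UMIs, depth or doublets. In the 51 pericytes, *Ccl2* had 1462 CPM, *Cxcl12* 737.7, *Il13ra2* 669.1, *Ccl7* 644.4, *Ccl11* 329.1 and *Il6st* 304.4. Lower levels there were those of *Il34* (224.9), *Cx3cl1* (167.3), *Cxcl10* (137.1), *Il6* (79.53), *Cxcl6* (52.1) and *Cxcl3* (27.42). *Cxcl12* was found in 44 of the 51 cells, *Il34* in 37 and *Il13ra2*, a decoy receptor for interleukin-13, in 36. *Ccl7* rested on 9 cells, 1 of which held 59.15% of its UMIs, and *Il6* and *Cxcl6* rested on 2 cells each. *Cxcl10* came from 5 cells and *Cxcl3* from 4. *Ccl2* came from 26 cells and *Ccl11* from 14, and the 5 richest cells held 53.1% and 78.3% of their UMIs. The bounds cover counting error only and no spread between cells. In the 59 posterior pituitary cells, *Cxcl17*, a mucosal chemokine, had 100.7 CPM, in 26 cells, all of the male lanes, which held 25 and 30 of these cells against 3 and 1 in the female lanes.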

How the results depend on the processing

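Of the counts of members past the limit, that of leading members (27) fell to 10 with erythrocytes in the fit and stayed between 18 and 39 under the other alternatives (26 to 28 with 1 lane left out). The leads in Le lost with DESeq2 included those of *Il21r*, *Ccl12*, *Cxcl13*, *Il1rn*, *Il1a* and *Il2rb*. Leading relay genes (24) numbered 51 at a limit of 0.05, 9 with erythrocytes in the fit and 40 with sums per lane. Differences between the sexes (16) numbered 35 at a limit of 0.05, 9 with DESeq2 and 9 to 19 with 1 lane left out, and 17 when Le were limited to the C1q class, an alternative chosen after seeing the data. Lost with DESeq2 were *Ccl5* and *Il1a* in Le, *Cxcl1* and *Il34* in FSC, *Il18* in L, and *Il6st* and *Il6r* in S. Differences between lanes of the same sex (4) numbered 0 with DESeq2. For the alternatives of this section, shares of all genes were not computed, except in the C1q class alone (0.544%). Whether the counts of members moved with those of all genes was therefore not tested. Between leukocyte classes (14) there were 9 with DESeq2, 22 without the filter, 9 with thinned cells and 9 to 17 with 1 lane left out, and between FSC classes (9) there were 5 with DESeq2, 3 with thinned cells and 6 to 7 with 1 lane left out. Of the members' calls and those of the 10 named relay genes, none changed its direction where it was tested; the other relay genes were not followed. Apart from the smaller counts left by thinning and by fewer lanes, the cause was not tested. Depth limits the scarcest members, ligands and receptors alike, some of which were found in 10 to 15 cells. No paired analysis was possible because the lanes carry no replicate numbers that could be matched between the sexes.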
